A study of Mus musculus with 96 samples.

Results

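Contractile genes of smooth muscle and of myofibroblasts were followed in 4 cell types isolated from the mouse heart after acute myocardial infarction (AMI). The 8 genes were chosen by name, for their place in the smooth muscle contractile apparatus, and with earlier results of these data known. They are Acta2, Actg2, Myh11, Myl9, Tpm2, Tagln, Cnn1 and Cald1. These are 8 of the 50868 genes listed in every library. All 8 had enough reads to be tested in cardiomyocytes (CM), endothelial cells (EC) and fibroblasts (FB), and 7 of them in hematopoietic cells (HC), where Actg2 did not pass the filter on low counts.

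Total RNA of 96 libraries was sequenced, 4 in each of 24 groups made by 4 cell types and 6 days. The mice were male C57Bl/6J, 12 to 14 weeks old, with the left anterior descending artery permanently ligated, and hearts were taken after 1, 3, 7, 14 and 28 days. Day 0, the control of every comparison, was mice that had no operation, so surgery and infarction cannot be told apart. CM were collected by slow spins of the digested heart, EC with beads against CD144, HC with beads against CD45, and FB from the remaining cells by a plating step of 40 minutes. The adhering FB were mainly positive for DDR2. Each library was made from RNA pooled over 2 to 3 mice, different mice on each day, and smooth muscle cells and pericytes were not collected as an isolate of their own. The replicates are called both biological and technical in the study, so p-values cover only how these pools vary, and some of that may be technical. Libraries of each cell type were prepared as a batch, so cell type and preparation cannot be told apart. By the study's methods, pools of the same day came from matched animals across the cell types, and which pools share which mice is not given in the sources used here.

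In smooth muscle cells, contraction is driven by thick filaments of smooth muscle myosin that pull on thin filaments of actin and tropomyosin. Acta2 encodes smooth muscle alpha-actin and Actg2 the gamma smooth muscle actin of visceral organs. Myh11 encodes the smooth muscle myosin heavy chain, and Myl9 a regulatory light chain whose phosphorylation starts contraction. Tpm2 encodes beta-tropomyosin, which lies along the actin filament. Tagln (transgelin, SM22alpha), Cnn1 (calponin 1) and Cald1 (caldesmon) encode actin-binding proteins, and calponin and caldesmon restrain the myosin motor. Vessel walls hold most smooth muscle cells of the heart, and the related pericytes lie on capillaries. After infarction, fibroblasts of the wound can turn into myofibroblasts, which take on alpha-actin stress fibres and lay down the scar, whereas Myh11 is widely used as a marker of mature smooth muscle.

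In the mouse genome (mm10/GRCm38, GENCODE M21 coordinates of whole genes, exons and introns together), Acta2 lies on the minus strand at chr19:34241090-34255590 and Actg2 on the minus strand at chr6:83512905-83536265. Myh11 spans chr16:14194535-14291372 on the minus strand, and Myl9 chr2:156775420-156781658 on the plus strand. Tpm2 is at chr4:43514711-43523765 (minus), Tagln at chr9:45929619-45936058 (minus), Cnn1 at chr9:22099216-22109630 (plus) and Cald1 at chr6:34598500-34775473 (plus). Tagln overlaps Pcsk7, which reached at most 41.5 reads per 1000000 coding reads in EC, and the antisense gene Gm48529, at most 7.99 there. Whether counting used the strand is not given in the sources used here, so reads of these overlaps, and reads that actin genes of near-identical sequence share, are uncertain.

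Promoters of 4 members are shown before the values, because serum response factor, a main activator of these genes, binds a sequence called the CArG box. RefSeq start sites (GRCm38.p6) were given for 5 of the 8 genes, in 6 windows, each of 250 bases before the start. The windows of 4 genes are printed in the direction of transcription, with capitals for a CArG box, for a CArG-like sequence, which may hold 1 G or C among the 6 inner bases, or for CATTCC on either strand, the core motif of TEAD factors.
Acta2: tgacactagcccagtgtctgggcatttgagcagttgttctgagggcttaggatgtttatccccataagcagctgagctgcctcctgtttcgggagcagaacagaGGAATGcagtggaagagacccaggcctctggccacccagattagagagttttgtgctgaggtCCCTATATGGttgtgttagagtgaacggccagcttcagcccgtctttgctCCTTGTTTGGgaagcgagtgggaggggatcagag
Myl9: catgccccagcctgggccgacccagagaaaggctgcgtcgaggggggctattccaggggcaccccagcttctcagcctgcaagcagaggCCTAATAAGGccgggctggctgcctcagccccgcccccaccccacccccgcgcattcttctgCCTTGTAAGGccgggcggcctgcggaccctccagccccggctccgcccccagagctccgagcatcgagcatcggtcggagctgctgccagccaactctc
Cnn1: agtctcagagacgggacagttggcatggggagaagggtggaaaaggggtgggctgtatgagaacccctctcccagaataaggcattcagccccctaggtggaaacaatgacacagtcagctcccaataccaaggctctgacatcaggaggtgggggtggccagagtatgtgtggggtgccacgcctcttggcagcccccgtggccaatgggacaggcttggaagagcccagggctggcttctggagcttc
Tpm2: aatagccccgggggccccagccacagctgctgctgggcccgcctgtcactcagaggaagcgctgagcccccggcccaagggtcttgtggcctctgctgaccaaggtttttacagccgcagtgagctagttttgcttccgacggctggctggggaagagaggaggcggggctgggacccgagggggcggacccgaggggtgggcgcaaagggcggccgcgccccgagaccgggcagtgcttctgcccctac
The windows are chr19:34255374-34255623 (minus strand) for Acta2, chr2:156775214-156775463 (plus) for Myl9, chr9:22099003-22099252 (plus) for Cnn1 and chr4:43523555-43523804 (minus) for Tpm2. The RefSeq starts used lie downstream of the GENCODE starts of these genes. Each window therefore lay partly inside the GENCODE span of its gene, for Acta2 and Tpm2 by most of its length. The Acta2 window held CArG-like sequences at -84 to -75 and at -34 to -25 before the start, and GGAATG, the other strand of CATTCC, at -146 to -141. A full CArG box lay at -161 to -152 of Myl9, with a CArG-like sequence at -99 to -90. The windows of Cnn1 and Tpm2 held none of these letters, and of the 2 windows of Cald1, the more upstream held GGAATG at -153 to -148. Of 32851 windows of the same length, 1.47% held a CArG box, 8.59% a CArG-like sequence, the box included, and 12.6% CATTCC on either strand. Tagln, Myh11 and Actg2 are named only.

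Levels are given as reads per 1000000 reads of nuclear protein-coding genes in the same library (coding CPM), a scale for comparing libraries within a gene. Genes are compared with each other as TPM rescaled to the same total over these coding genes (coding TPM), which divides by length. Coding reads per library ranged from 2196562 to 9928199 in CM, 7813810 to 19778881 in EC, 1282672 to 29510357 in FB and 10874511 to 32164178 in HC. At Day 0 the 4 markers of each cell type were highest in their own isolate, summing to 18271 to 28704 coding CPM for CM markers in CM, 5564 to 7218 for EC markers in EC, 2385 to 2549 for FB markers in FB and 1371 to 1709 for HC markers in HC. FB Day 3 replicates 2 and 3 stood apart, with 1282672 and 1719097 coding reads, where replicates 1 and 4 held 23609932 and 12802910. In these libraries CM markers summed to 600.3 and 420.1 coding CPM, against 15.04 and 21.1 in the other FB Day 3 libraries and 28.5 to 56.8 at Day 0. The study itself removed libraries of FB Day 3 and a library of HC Day 28 as outliers, and which ones is not given in the sources used here. The main fits kept all 4 libraries of each group. Values without FB Day 3 replicates 2 and 3 and 6 other libraries that an earlier look at the data had set apart are given where they matter (8 libraries in all, the others being replicate 4 of FB Day 28, replicates 2 and 4 of HC Day 28, replicates 1 and 2 of EC Day 0 and replicate 3 of EC Day 28).

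FB gained contractile transcripts within days. At Day 3, 7 of the 8 genes had risen over Day 0 by edgeR's quasi-likelihood test (Benjamini-Hochberg adjusted p under 0.05), against 25.8% of all 18644 tested genes called higher. At Day 1 the count was 3 of 8, with a background of 11.6%, at Day 7 it was 7 of 8 (9.84%), and at Day 14 it was 5 of 8 (8.25%). At Day 28 none was called (2.88%), with log2 differences from -0.55 to 0.63. Actg2, called at Day 3, Day 7 and Day 14, was too scarce at Day 0 to be tested by itself. It did not pass the filter on low counts when Day 0 was fitted with Day 1 or Day 28 alone, nor did Cnn1 with Day 1 alone. With Day 3, Day 7 or Day 14 alone Actg2 passed and was called. It thus entered the FB test through its higher days, which favours a call in the counts above. The median log2 fold change of the 8 genes was 0.42 at Day 1, 3.12 at Day 3, 2.01 at Day 7, 1.37 at Day 14 and 0.22 at Day 28, while the median over all tested genes stayed between -0.05 and 0.04. The plot of every library by day shows these courses beside those of the other cell types.

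**Figure D1:**
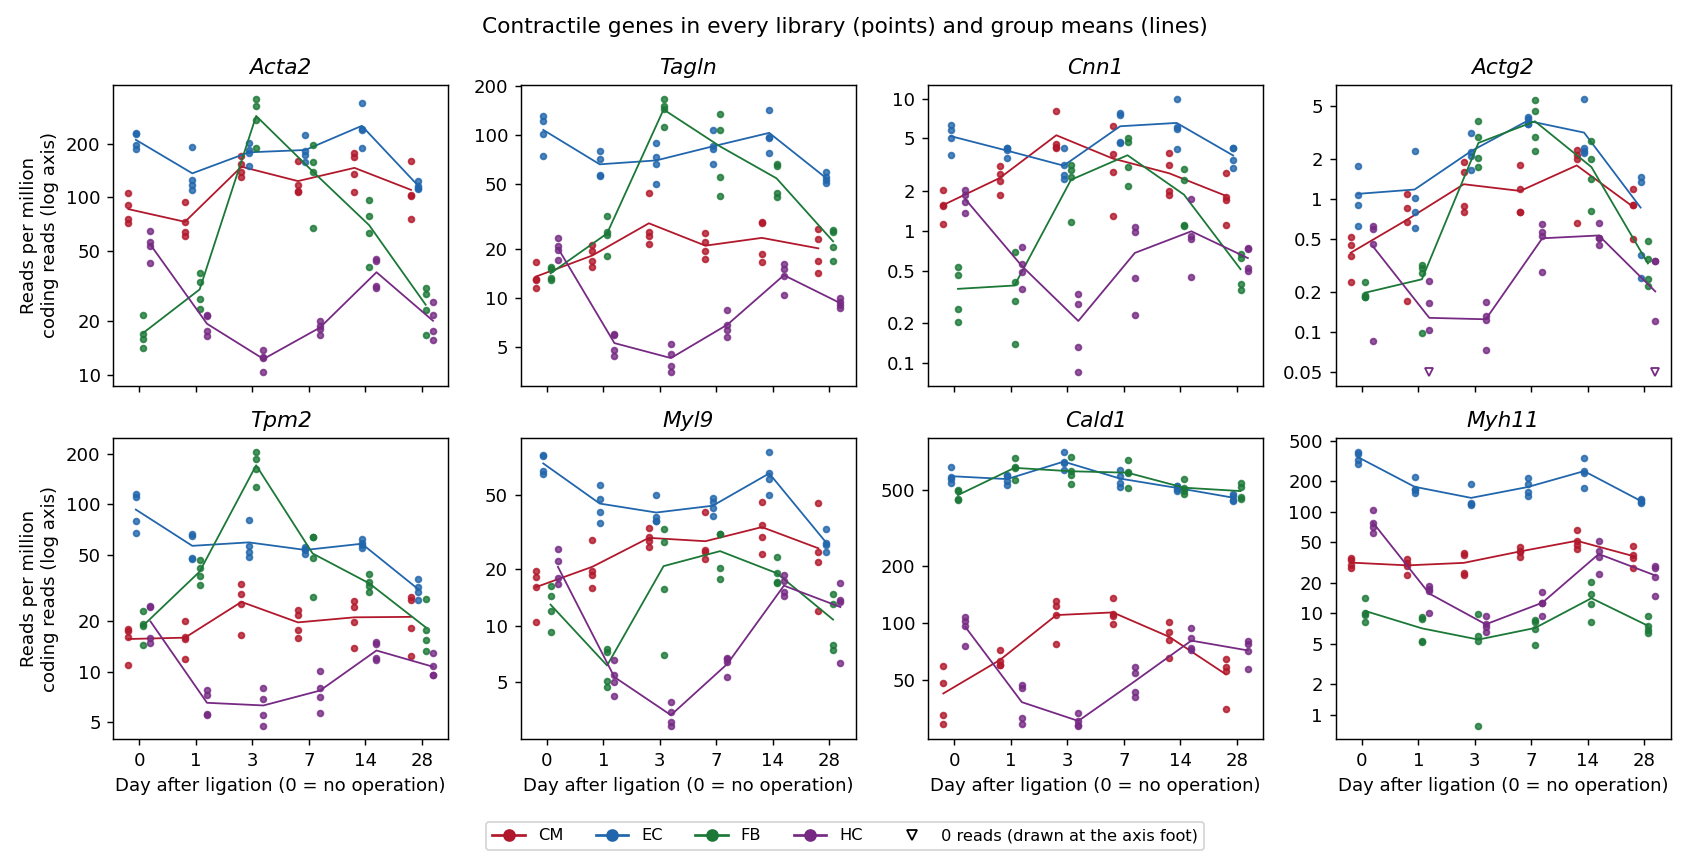
Coding CPM (log axis) of each contractile gene against the day after ligation, with a point for each of the 96 libraries and lines through the group means of CM, EC, FB and HC. Open triangles mark the HC libraries with 0 Actg2 reads, drawn at the axis foot. The FB libraries of Acta2 climb from 14.1 to 21.8 at Day 0 to between 189.6 and 359 at Day 3, while Myh11 in FB stays at or below 20.2 at every day.

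Acta2, the actin used to mark myofibroblasts, stood at 17.0, 21.8, 16.03 and 14.1 coding CPM in the 4 FB libraries of Day 0. At Day 3 it was 327.6, 271.3, 189.6 and 359 in replicates 1 to 4. Every Day 3 library was above every Day 0 library, also in the shallow replicates 2 and 3. The fold change was 18.4 (log2 4.20 ± 0.33 SE, n = 4, adjusted p = 3.2e-09). By Day 7 the 4 libraries held 157, 67.3, 139 and 196 coding CPM, 8.11-fold above Day 0, and by Day 14 they held 96.7, 40.4, 78.7 and 62.9, 3.99-fold above. At Day 28 the range of 16.8 to 31.0 overlapped Day 0, and the log2 difference of 0.46 ± 0.29 did not pass the test. At Day 1 all 4 libraries (23.4 to 37.5) were already above Day 0, with a log2 difference of 0.83 ± 0.29 that just missed the threshold (adjusted p = 0.053) and passed it without the 8 libraries (log2 0.86, adjusted p = 0.040).

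Actg2, the rarer smooth muscle actin, moved with it from a far lower level. It was at 0.184, 0.183, 0.191 and 0.237 coding CPM at Day 0 and at 2.97, 3.90, 1.75 and 2.03 at Day 3, where the shallow replicates 2 and 3 rested on 5 and 3 reads. The groups did not overlap (log2 3.77 ± 0.44, 13.7-fold, adjusted p = 7.4e-07). At Day 7 its libraries lay between 2.33 and 5.58, 18.8-fold above Day 0, and at Day 14 it was 8.42-fold above. Per length, Actg2 stayed far below Acta2 in FB, at 6.51 ± 2.9 against 286 ± 72 coding TPM at Day 3 (SD, n = 4).

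Among the actin-binding genes, Tagln followed Acta2 closely. Its FB libraries held 12.9, 15.5, 15.04 and 13.2 coding CPM at Day 0, and 150.6, 144, 112 and 168 at Day 3. The groups lay far apart, 11.2-fold in the fit (log2 3.49 ± 0.30, adjusted p = 1.4e-08). The rise was 1.78-fold at Day 1, 6.01-fold at Day 7 and 3.78-fold at Day 14. The Day 1 call was lost when any of the 8 libraries compared other than FB Day 1 replicate 3 was left out, with adjusted p up to 0.131. Cnn1 was scarce, at 0.460, 0.257, 0.534 and 0.203 coding CPM at Day 0 and 2.54, 3.12, 1.16 and 2.89 at Day 3, on 60, 4, 2 and 37 reads. Its groups did not overlap at Day 3 (7.53-fold, adjusted p = 4.7e-05), it stood 10.2-fold above Day 0 at Day 7 and 5.08-fold at Day 14. Cald1 was abundant from the start and, of the 7 genes that rose at Day 3, had the smallest fold. It held 444 to 501 coding CPM at Day 0 and 539 to 748 at Day 3, with no overlap and a fold of 1.47 (log2 0.55 ± 0.13, adjusted p = 0.0012), a direction that turned on the deposited TPM scale (log2 -1.19), where the median gene shifted by -1.39. Cald1 was also called at Day 1 (1.40-fold) and at Day 7 (1.30-fold, adjusted p = 0.045), and the Day 7 call was lost without any library but FB Day 7 replicate 2 (adjusted p up to 0.225) and in the fit blocked by replicate number (adjusted p = 0.057).

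Tpm2, which encodes beta-tropomyosin, rose early and turned early. FB libraries held 19.3, 23.0, 14.4 and 18.8 coding CPM at Day 0, then 46.5, 41.9, 33.0 and 37.2 at Day 1, and 128, 188, 206 and 164 at Day 3. Each of these days was free of overlap with Day 0, at 2.13-fold (adjusted p = 0.0026) and 9.99-fold (adjusted p = 3e-09). At Day 7 the libraries were back at 28.0 to 64.0, still 2.69-fold above Day 0, and at Day 14 the fold was 1.77 (adjusted p = 0.027), a call lost without FB Day 0 replicate 1, 3 or 4 or FB Day 14 replicate 1 (adjusted p up to 0.107).

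The myosin genes took another course. Myl9, the regulatory light chain, went first down and then up in FB. It was at 14.3, 16.3, 9.20 and 11.9 coding CPM at Day 0 and at 7.46, 7.26, 5.05 and 4.71 at Day 1, all 4 below all 4 controls. This was the single call below Day 0 among the 8 genes in FB (log2 -1.06 ± 0.31, adjusted p = 0.022), where 6.36% of all genes were called lower. The call was lost without FB Day 0 replicate 1 or 2 or FB Day 1 replicate 3 or 4 (adjusted p up to 0.0762). At Day 3 it held 27.9, 15.6, 6.98 and 32.6, overlapping Day 0, and was called higher at log2 0.93 ± 0.32 (adjusted p = 0.019), a direction that turned on the deposited TPM scale (-1.25), whose median gene shifted by -1.39. The shallow replicates 2 and 3 were the lowest, and without the 8 libraries the value was 1.36 (adjusted p = 0.00042), while leaving out FB Day 3 replicate 4, FB Day 3 replicate 1 or FB Day 0 replicate 3 in turn ended the call (adjusted p 0.151, 0.0516 and 0.0684). Myl9 at Day 7 stood 1.92-fold above Day 0 (adjusted p = 0.041), a call lost without FB Day 0 replicate 1, 3 or 4 or FB Day 7 replicate 1 or 4 (adjusted p up to 0.160). Myh11, the smooth muscle heavy chain, was at 9.57, 14.2, 10.03 and 8.14 coding CPM at Day 0 and at 5.34, 0.780, 9.91 and 5.93 at Day 3, the value of replicate 2 being 1 read. The difference was -0.75 ± 0.33 on the log2 scale and did not pass (adjusted p = 0.065), and it passed without FB Day 3 replicate 3 (log2 -0.91, adjusted p = 0.034). No later day of Myh11 was called in FB, with log2 differences of -0.57, 0.39 and -0.55 at Day 7, Day 14 and Day 28.

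Comparing neighbouring days in FB shows when each gene turned. From Day 1 to Day 3, 6 of the 8 rose (15.4% of all genes did), all but Cald1 and Myh11, led by Actg2 (log2 3.43 ± 0.44) and Acta2 (3.37 ± 0.32). From Day 3 to Day 7, 3 fell (19.5% of all genes), namely Tpm2 (log2 -1.89 ± 0.25), Acta2 (-1.18 ± 0.29) and Tagln (-0.90 ± 0.28), while Cnn1 (0.43 ± 0.44), Actg2 (0.46 ± 0.38) and Myl9 (0.01 ± 0.31) had no called difference. From Day 7 to Day 14 none of the 8 was called, where 0.0375% of all genes were called higher and 0.0107% lower. From Day 14 to Day 28, 5 fell (2.12% of all genes): Actg2 (-2.44 ± 0.40), Cnn1 (-1.91 ± 0.44), Acta2 (-1.54 ± 0.30), Tagln (-1.34 ± 0.28) and Tpm2 (-0.94 ± 0.24).

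**Figure D2:**
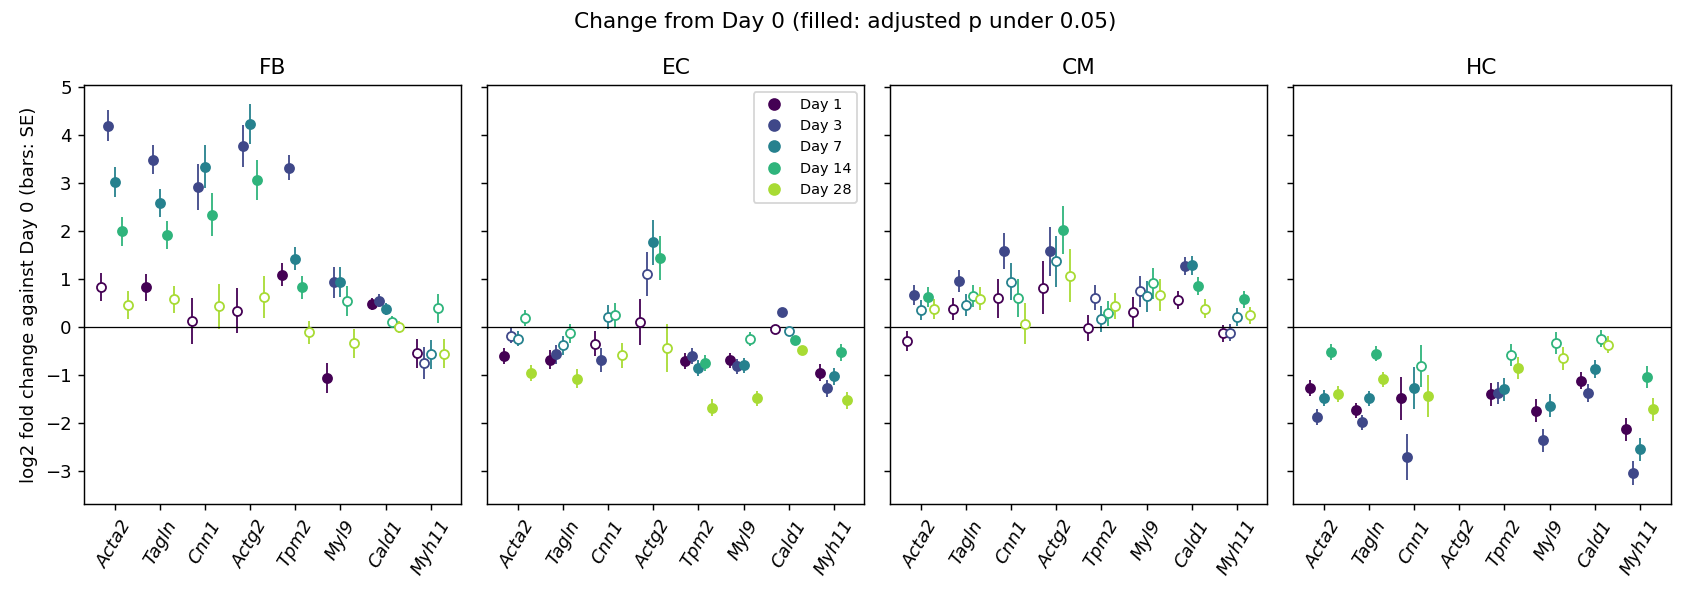
Log2 fold change against Day 0 (y axis) of each contractile gene (x axis) in CM, EC, FB and HC, a point per day with its standard error, filled where the adjusted p is under 0.05 and open where it is not. Actg2 has no point in HC, where it was not tested. The FB point of Acta2 at Day 3 is at 4.20, and every HC point lies below 0.

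Markers of other cells were read beside the FB changes. Pericyte genes, 11 in number, summed to 1088 to 1315 coding CPM in FB at Day 0 and 583 to 692 at Day 3, with 5 of 11 called lower and 1 (Mcam) higher, where 23.3% of all genes were called lower. Activated fibroblast genes, 12 in all, summed to 7236 to 8228 coding CPM at Day 0 and 35995 to 78845 at Day 3. Of these 12, 8 were called higher, against 25.8% of all genes. The FB marker sum was 2385 to 2549 at Day 0 and 861 to 1529 at Day 3, and the EC marker sum was 302 to 487 at Day 0 and 191 to 308 at Day 3. CM markers summed to 28.5 to 56.8 at Day 0 and 15.04 to 600.3 at Day 3, and HC markers to 2.16 to 2.85 and 1.74 to 12.9, both highest in the shallow replicates 2 and 3. The part of these cells in the FB changes was not tested. Without the 8 libraries, the same 7 genes were called at Day 3, with log2 fold changes of 4.46 for Acta2, 3.63 for Tagln, 3.04 for Cnn1, 3.75 for Actg2 and 3.09 for Tpm2. In bulk RNA, a change in the number of cells of a type and a change in RNA per cell cannot be told apart.

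The ratio of Acta2 to Myh11 sets the actin that myofibroblasts share with smooth muscle against the myosin of mature smooth muscle. In FB the TPM ratio of Day 0 libraries was 6.25 to 8.60 (median 7.47). It was 17.2 to 18.1 at Day 1, 239, 479, 31.3 and 225 in replicates 1 to 4 of Day 3, 38.7 to 124 at Day 7, 13.5 to 38.6 at Day 14 and 10.3 to 18.0 at Day 28. All 5 days lay above Day 0 without overlap, and the value of 479 rests on the library with 1 Myh11 read. Mean log2 ratios exceeded Day 0 by 1.27, 4.51, 3.49, 1.53 and 0.84 in order of day. In EC the ratio was lower, 1.42 to 2.10 at Day 0, and it too stood higher at each later day, at 3.61 to 5.73 at Day 3 and 3.11 to 4.05 at Day 28, with mean log2 differences of 0.51, 1.48, 1.05, 1.19 and 1.12 in order of day. Each of these 10 comparisons gave p = 0.0286 by a two-sided exact permutation test, the smallest that 70 splits of 4 against 4 allow (0.0429 adjusted over 15 comparisons). In CM no day passed, the nearest being Day 3 (exact permutation p = 0.0571, adjusted p = 0.0779), with ratios of at least 10 and up to 17.7 against 5.91 to 11.4 at Day 0. In HC the ratio was 2.51 to 2.64 at Day 0, 3.60 to 6.28 at Day 1, 3.24 to 7.19 at Day 3, 4.57 to 6.73 at Day 7, 3.36 to 4.23 at Day 14 and 2.61 to 4.25 at Day 28, given without a test because HC days came as files of both kinds, per transcript and per gene. The plot of the ratio by library shows the FB libraries of Day 3 and Day 7 above every CM, EC and HC library.

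**Figure D3:**
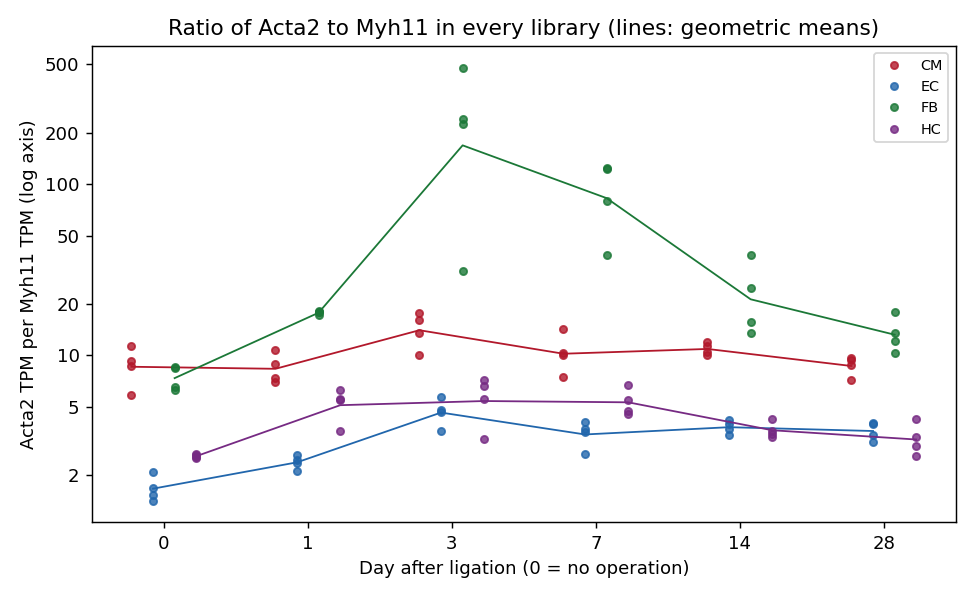
TPM of Acta2 divided by TPM of Myh11 (log axis) in each library of CM, EC, FB and HC against the day after ligation, with lines through the geometric means. FB ratios start at 6.25 to 8.60 and are between 31.3 and 479 at Day 3, and EC ratios start at 1.42 to 2.10 and are between 3.61 and 5.73 at Day 3.

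EC had the highest mean coding CPM of all 8 genes before infarction, and several of them were lower after it. Of the 8 genes, 5 were lower at Day 1 (9.12% of all 18132 tested genes), 5 at Day 3 (22.3%), 3 at Day 7 (19.6%), 3 at Day 14 (14.3%) and 6 at Day 28 (17.4%). Calls higher than Day 0 were Cald1 at Day 3 (23.2% of all genes), and Actg2 at Day 7 (18.0%) and at Day 14 (12.8%). The median log2 fold change of the 8 genes was -0.64, -0.58, -0.31, -0.19 and -1.01 in order of day.

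Myh11 and Tpm2 were called lower in EC at all 5 days. Myh11 was at 386, 372, 319 and 292.5 coding CPM at Day 0, at 117, 119, 188 and 122 at Day 3 and at 121, 134, 131 and 124 at Day 28. The groups did not overlap. Myh11 was 1.93-fold lower at Day 1, 2.43-fold lower at Day 3 (log2 -1.28 ± 0.17, adjusted p = 5.3e-06), 2.03-fold lower at Day 7, 1.44-fold lower at Day 14 and 2.87-fold lower at Day 28 (log2 -1.52 ± 0.18, adjusted p = 2.9e-06). Without the 8 libraries it kept its call at Day 1, Day 3, Day 7 and Day 28, with log2 -1.37 at Day 28, and lost that of Day 14 (adjusted p = 0.29), whose direction also turned on the deposited TPM scale (log2 0.12) and which was lost without EC Day 0 replicate 1 or 2 or EC Day 14 replicate 1, 2 or 3.

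Myl9 in EC was at 80.6, 81.0, 67.0 and 64.5 coding CPM at Day 0 and at 27.0, 24.6, 27.4 and 32.6 at Day 28, 2.80-fold lower without overlap (adjusted p = 1.4e-06), and it was called lower at Day 1, Day 3 and Day 7 as well. Its Day 1 call was lost without the 8 libraries (adjusted p = 0.095). Tpm2 in EC had 116, 110.3, 79.2 and 67.5 coding CPM at Day 0 and 26.8, 31.9, 30.0 and 35.7 at Day 28, 3.19-fold lower (adjusted p = 1e-06). It was 1.62-fold, 1.51-fold, 1.79-fold and 1.67-fold lower at Day 1, Day 3, Day 7 and Day 14, and of these calls only that of Day 7 was kept without the 8 libraries (adjusted p = 0.043, against 0.27, 0.29 and 0.14). Its direction at Day 7 and Day 14 turned on the deposited TPM scale (log2 0.25 and 0.33). Acta2 had 228, 229, 198 and 187 at Day 0 and 116, 113, 111 and 123 at Day 28, 1.94-fold lower (but log2 0.45 on the deposited TPM scale, whose median gene shifted by 0.96), and between these days only Day 1 was called (1.52-fold, lost without EC Day 1 replicate 4 at adjusted p = 0.0614). That Day 1 call of Acta2 was also lost without the 8 libraries (adjusted p = 0.19). Tagln fell 2.10-fold by Day 28, from 74.9 to 132 down to 50.8 to 59.4. Cald1 had 550 to 665 coding CPM at Day 0, was 1.24-fold higher at Day 3 and 1.39-fold lower at Day 28 (log2 0.10 on the deposited TPM scale). Without the 8 libraries the Day 3 call of Cald1 was lost (adjusted p = 0.051). Between Day 14 and Day 28, 5 of the 8 fell in EC, against 0.750% of all genes: Myl9 (log2 -1.24 ± 0.16), Acta2 (-1.15 ± 0.16), Myh11 (-0.998 ± 0.17), Tagln (-0.94 ± 0.20) and Tpm2 (-0.93 ± 0.17).

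Actg2 was called higher than Day 0 in EC at Day 7 and Day 14. It was at 0.902, 0.636, 1.79 and 1.07 coding CPM at Day 0 and at 3.71, 4.17, 4.04 and 3.69 at Day 7, all above all controls (3.40-fold, adjusted p = 0.0050). At Day 14 it was 2.72-fold higher (adjusted p = 0.025), a call lost without EC Day 0 replicate 1 or 2 or EC Day 14 replicate 4 (adjusted p up to 0.119), and the difference at Day 3 (log2 1.11 ± 0.46) missed the threshold. Activated fibroblast genes were higher in the same libraries, with a sum of 731 to 846 coding CPM at Day 0, 9261 to 16383 at Day 7 and 3361 to 5539 at Day 14, and FB markers went from 122 to 161 at Day 0 to 269 to 576 at Day 7 and 164 to 254 at Day 14. The part of these cells in the Actg2 changes was not tested.

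The EC counts depended on the libraries kept. EC Day 0 replicates 1 and 2 had the highest Acta2, Tagln, Myh11, Myl9 and Tpm2 of their group, and without the 8 libraries, which include them, the calls lower than Day 0 went from 22 to 12 and those higher from 3 to 1. At Day 28 the 6 falling genes all kept their call. Of single libraries, EC Day 0 replicate 1 or 2 or EC Day 1 replicate 3 or 4 ended the call of Tagln at Day 1, and EC Day 0 replicate 1 or 2 or EC Day 3 replicate 3 or 4 that at Day 3. Cnn1 at Day 3 (1.61-fold lower, adjusted p = 0.034) was lost without any library but EC Day 0 replicate 4 and EC Day 3 replicate 2 (adjusted p up to 0.0962), and Cald1 at Day 14 was lost without EC Day 0 replicate 3 (adjusted p = 0.0750). Pericyte genes fell beside the contractile genes in EC, from a sum of 4842 to 5922 coding CPM at Day 0 to 2153 to 2694 at Day 3 and 2858 to 3249 at Day 28, with 6, 10, 7, 7 and 8 of 11 called lower in order of day and 1, 1, 0, 1 and 0 higher. The shares of all genes called lower were 9.12%, 22.3%, 19.6%, 14.3% and 17.4%. Activated fibroblast genes went the other way, with mean sums 1.68, 9.10, 16.3, 5.34 and 3.89 times that of Day 0 in order of day and 5, 9, 11, 10 and 11 of 12 called higher, against backgrounds of 9.85%, 23.2%, 18.0%, 12.8% and 16.3%. FB markers were at 1.39, 1.63, 2.71, 1.48 and 2.40 times their Day 0 sum. EC markers summed to 5564 to 7218 at Day 0 and 6287 to 7203 at Day 28, and CM markers fell from 2337 to 4061 at Day 0 to 508 to 908 at Day 28. The part of these cells in the contractile gene changes was not tested.

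In CM, contractile transcripts were low and rose modestly. At Day 1 none of the 8 was called (6.81% of all 14530 genes higher), at Day 3 it was 5 (16%), at Day 7 it was 1 (8.93%), at Day 14 it was 4 (8.05%) and at Day 28 none (2.48%), and no gene of the list was called lower. Cald1 was called at Day 3, Day 7 and Day 14. It went from 48.0, 29.1, 59.1 and 32.6 coding CPM at Day 0 to 123, 129.5, 109 and 77.2 at Day 3, free of overlap (2.42-fold, adjusted p = 1.9e-05), and it was 2.44-fold above Day 0 at Day 7 and 1.82-fold at Day 14. Cnn1 went from 1.57, 2.03, 1.12 and 1.54 to 4.31, 8.06, 4.20 and 4.52 at Day 3 (3.01-fold, adjusted p = 0.0023). Tagln had 13.1, 12.8, 11.4 and 16.6 at Day 0 and 21.4, 44.1, 25.2 and 24.04 at Day 3 (1.94-fold, adjusted p = 0.0026), with replicate 2 far above the rest. Acta2 was 71.3 to 106 at Day 0 and 131 to 171 at Day 3 (1.58-fold, adjusted p = 0.018, 0.050 without CM Day 3 replicate 2). Actg2, at 0.237 to 0.525, rose 2.99-fold at Day 3 and 4.07-fold at Day 14, the Day 3 call being lost without CM Day 0 replicate 4 or CM Day 3 replicate 2 (adjusted p up to 0.0731). These Actg2 folds rest on few reads, its main isoform Actg2-201 holding 169 over all CM libraries. With Day 0 and any 1 later day alone, Actg2 did not pass the filter on low counts in CM.

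Acta2 at Day 14 in CM (1.54-fold, adjusted p = 0.046) lost its call without any library but CM Day 0 replicate 2 and CM Day 14 replicate 2, with adjusted p up to 0.125, and in the fit blocked by replicate number (adjusted p = 0.056). Myh11 at Day 14 (1.49-fold, adjusted p = 0.032) was lost without CM Day 0 replicate 2 or 3 or CM Day 14 replicate 1 or 4 (adjusted p up to 0.136). Transcripts typical of other cells were higher in the CM libraries at Day 3. Activated fibroblast genes summed to 79.0 to 105 coding CPM at Day 0 and 1296 to 2001 at Day 3, with 9 of 12 called higher (16% of all genes). HC markers summed to 1.05 to 2.99 at Day 0 and 28.5 to 40.8 at Day 3. Pericyte genes were at 666 to 1091 and 607 to 856, and EC markers at 313 to 526 and 368 to 492. The part of these cells in the CM changes was not tested.

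In HC the contractile genes fell at Day 1, Day 3 and Day 7, beside lower sums of CM, EC and pericyte markers. Of 7 genes tested, 7 were lower at Day 1 (24% of all 18934 genes), Day 3 (23.2%) and Day 7 (14.2%), 3 at Day 14 (6.80%) and 5 at Day 28 (10.4%), and none was higher at any day. At Day 3 the largest fold was that of Myh11, from 70.2, 104, 61.6 and 76.8 coding CPM at Day 0 to 6.49, 7.82, 7.30 and 9.42, 8.23-fold and without overlap (adjusted p = 3.2e-09). Acta2 went from 42.6, 64.8, 53.2 and 55.7 to 13.8, 12.4, 12.7 and 10.3, 3.66-fold lower. The other 5 genes were 2.59-fold to 6.52-fold lower at Day 3. From Day 7 to Day 14, 4 of the 7 rose again (3.15% of all genes), namely Myh11 (log2 1.51 ± 0.24), Myl9 (1.31 ± 0.24), Acta2 (0.95 ± 0.16) and Tagln (0.93 ± 0.16). Across the same days CM markers in HC were at 0.19, 0.11 and 0.15 of their Day 0 sum at Day 1, Day 3 and Day 7, EC markers at 0.32, 0.16 and 0.26, and pericyte genes at 0.25, 0.11 and 0.22, while HC markers were at 1.31, 1.26 and 1.45 and activated fibroblast genes at 15.5, 8.85 and 11.2. The FB markers went the other way from the activated fibroblast genes, at 0.41, 0.32 and 0.81 of their Day 0 sum. The part of these cells in the HC changes was not tested. HC Day 1 and Day 7 came as transcript files and the other HC days as gene files. For Day 1 or Day 7 against Day 0, and Day 14 against Day 7, file kind and day cannot be told apart. Some HC calls rested on single libraries: Cnn1 at Day 7 was lost without HC Day 0 replicate 2, 3 or 4 or HC Day 7 replicate 1 or 3, Acta2 at Day 14 without HC Day 0 replicate 2, 3 or 4 or HC Day 14 replicate 1 or 2, Tagln at Day 14 without HC Day 0 replicate 2 or 4 or HC Day 14 replicate 1 or 2, Cnn1 at Day 28 without HC Day 0 replicate 2 or 4 or HC Day 28 replicate 2 or 4, and Tpm2 at Day 28 without HC Day 0 replicate 2 (adjusted p up to 0.173).

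At Day 0 the order of levels put EC first for nearly every gene. In coding CPM, Acta2 averaged 211 ± 21 in EC, 85.7 ± 16 in CM, 54.1 ± 9.2 in HC and 17.2 ± 3.3 in FB (SD, n = 4). Myh11 averaged 342 ± 44 in EC, 78.2 ± 18 in HC, 31.4 ± 3.4 in CM and 10.5 ± 2.6 in FB. Cald1 was shared by EC (595 ± 49) and FB (473 ± 29), with 94.9 ± 14 in HC and 42.2 ± 14 in CM. The edgeR fit of the 16 Day 0 libraries, which treats libraries that share mice as independent and sets transcript files (CM, EC) beside gene files (FB, HC), put 7 of the 8 genes lower in CM than in EC (40.5% of all 18739 genes were), all but Actg2, of which Acta2 (log2 -0.38 ± 0.16, adjusted p = 0.044) and Cnn1 lost the call without the 8 libraries. EC exceeded FB for 7 of 8 genes (32.2%), from Tpm2 (log2 1.92 ± 0.22) to Myh11 (4.65 ± 0.19), and exceeded HC for all 8 (23.1%), from Actg2 (1.17 ± 0.44) to Cald1 (2.56 ± 0.17). Cald1 in EC and FB did not pass the test after TMM scaling (log2 -0.05 ± 0.16) but was higher in EC on the coding TPM scale (log2 1.06), and a unit of Cald1 TPM stood for 1.37 times as many reads in transcript files as in gene files. The order of CM among the lower cell types depended on the scale: after TMM scaling CM exceeded FB for Tagln (log2 0.46) and Myl9 (0.84), and on the coding TPM scale it was lower (-0.84 and -0.67). Acta2 was higher in CM than in HC after TMM scaling (1.49) and lower on the coding TPM scale (-0.35, not called), and Myl9 turned from 0.46 to -1.17.

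Per length at Day 0, the order among genes differed by cell type. In EC, Cald1 (715 ± 81 coding TPM), Tpm2 (368 ± 65), Myl9 (303 ± 20), Acta2 (224 ± 12), Tagln (212 ± 65) and Myh11 (135 ± 22) were all abundant, with Cnn1 (4.44 ± 0.62) and Actg2 (2.64 ± 1.2) far below; Acta2 and Tagln did not differ beyond their spread. In FB at Day 0 the order was Cald1 (342 ± 31), Tpm2 (77.3 ± 15), Myl9 (46.3 ± 10), Tagln (23.8 ± 1.7), Acta2 (23.3 ± 4.5), Myh11 (3.16 ± 0.73), Cnn1 (0.628 ± 0.36) and Actg2 (0.508 ± 0.12), with Tagln beside Acta2 and Cnn1 beside Actg2 within their spread. At Day 3 in FB, Tpm2 (545 ± 174), Cald1 (434 ± 50), Acta2 (286 ± 72) and Tagln (268 ± 60) led, and Cnn1 (3.07 ± 2.2) and Myh11 (2.38 ± 2.5) were at the foot of the order and did not differ beyond their spread.

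Whether the cell types responded differently was tested directly, as the change in FB minus the change in EC or CM in 1 model of the 72 CM, EC and FB libraries. The model treats libraries of different cell types as independent although those of a day share mice. The FB change exceeded the EC change for 3 of the 8 genes at Day 1 (7.24% of all 20816 genes differed in either direction), 6 at Day 3 (32.6%), 6 at Day 7 (11.6%), 4 at Day 14 (9.56%) and 4 at Day 28 (10.2%). At Day 3 these were Acta2 (log2 difference 4.21 ± 0.35), Tagln (3.88 ± 0.35), Tpm2 (3.72 ± 0.32), Cnn1 (3.45 ± 0.53), Actg2 (2.50 ± 0.63) and Myl9 (1.62 ± 0.39). Myh11 (0.38 ± 0.34) and Cald1 (0.07 ± 0.20) did not pass. Against CM, 3 genes differed at Day 1 (10.5%), 5 at Day 3 (28.2%), 6 at Day 7 (8.44%), 4 at Day 14 (6.73%) and none at Day 28 (3.36%). The Cald1 change was lower in FB than in CM at Day 3 (-0.83 ± 0.20), Day 7 (-0.83 ± 0.20) and Day 14 (-0.69 ± 0.20), and Myl9 differed downward at Day 1 (-1.36 ± 0.40). EC against CM gave none at Day 1 (2.43%), 6 at Day 3 (17.3%), 3 at Day 7 (7.76%), 2 at Day 14 (4.12%) and 6 at Day 28 (14.6%), each lower in EC, among them Cnn1 at Day 3 (-2.22 ± 0.51) and Myl9 at Day 28 (-2.12 ± 0.40). HC was left out of this model because its days came as files of both kinds, whereas the days within CM, EC or FB were of 1 kind.

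Within their protein families the members gained or lost share, measured as the percentage of the family's TPM in a library. Tpm2 made up 6.47 ± 1.2% of tropomyosin TPM (Tpm1 to Tpm4) in FB at Day 0, 23.1 ± 4.4% at Day 3 and 13.6 ± 3.1% at Day 7. Tagln among transgelins went from 5.09 ± 0.48% to 39.1 ± 22%, but the Day 3 value combines 19.2% and 20.7% in replicates 1 and 4 with 61.4% and 55.2% in the shallow replicates 2 and 3. Acta2 among 6 actins went from 0.376 ± 0.072% to 3.44 ± 0.24% in FB at Day 3, and Myl9 among its 3 regulatory light chains from 5.46 ± 1.1% to 2.49 ± 0.22% at Day 1 and 11.3 ± 4.3% at Day 3. Myh11 among 4 heavy chains fell from 22.0 ± 3.5% to 6.27 ± 0.94% in EC at Day 3 and stood at 8.72 ± 0.85% at Day 28. These shares are descriptions; the plot of family shares gives every library.

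**Figure D4:**
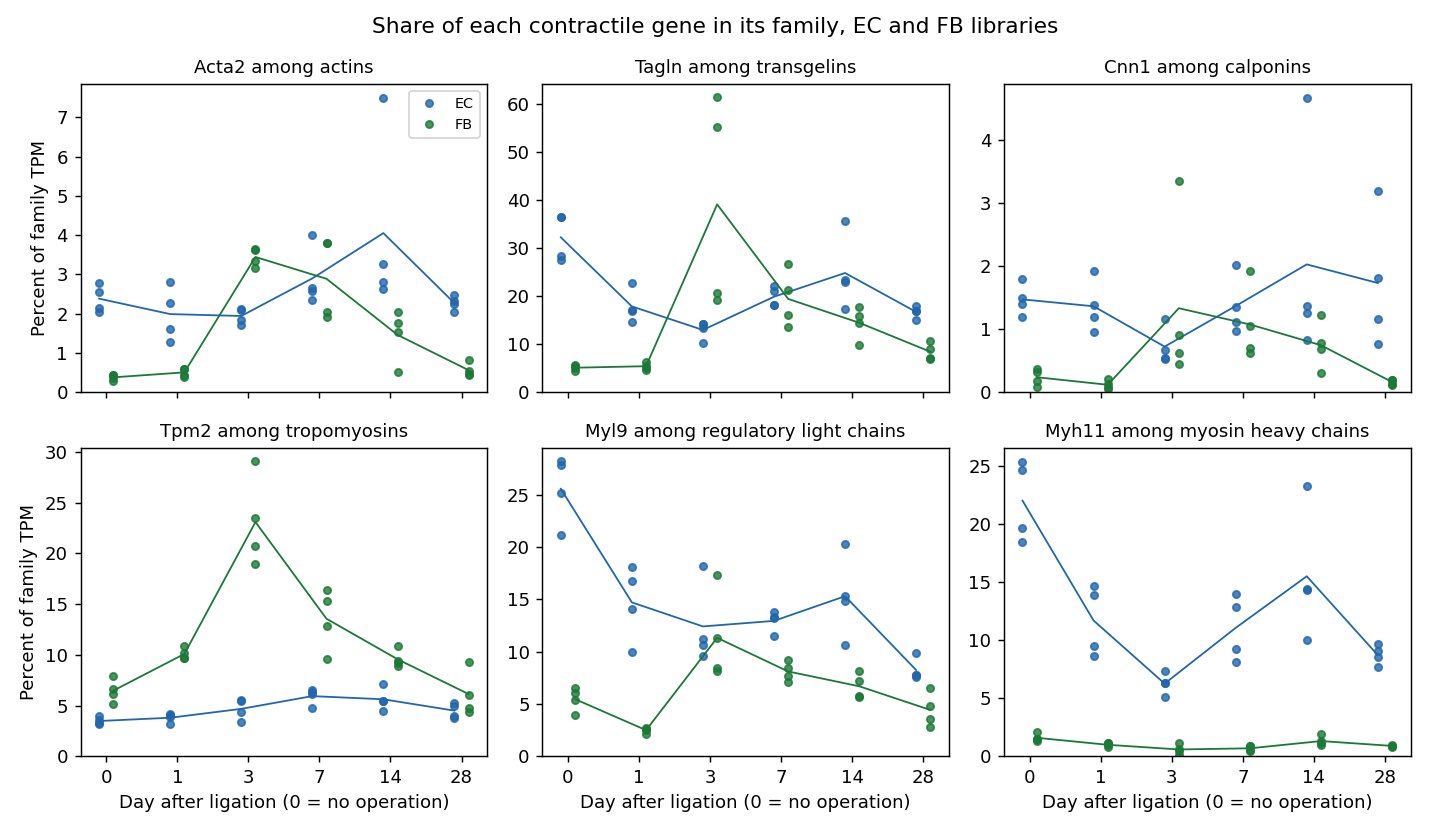
Percentage of the family's TPM taken by a contractile gene in each FB and EC library, against the day after ligation, with lines through the group means. In FB the Tpm2 share of tropomyosins goes from 6.47% at Day 0 to 23.1% at Day 3, and in EC the Myh11 share of heavy chains from 22.0% to 6.27%.

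Other genes of the contractile machinery moved in both directions. Of 20 further smooth muscle and cytoskeletal genes, 8 were higher and 6 lower in FB at Day 3, and 6 higher and 3 lower at Day 7. The largest rises at Day 3 were Palld (palladin, of actin bundles; log2 4.06 ± 0.26), Actn1 (alpha-actinin 1, 2.83 ± 0.29) and Ldb3 (2.37 ± 0.63), and the largest falls Itga8 (an integrin of smooth muscle and mesenchymal cells, -1.76 ± 0.27), Lmod1 (leiomodin 1, -1.09 ± 0.36) and Mustn1 (-0.94 ± 0.21). EC at Day 3 had 6 higher and 11 lower, with rises of Actn1 (1.65 ± 0.11), Pdlim7 (1.20 ± 0.12) and Map1b (0.90 ± 0.12) and falls of Lmod1 (-1.37 ± 0.20), Ldb3 (-1.25 ± 0.26) and Itga8 (-1.05 ± 0.22). CM at Day 3 had 5 higher, led by Actn1 (2.24 ± 0.18) and Map1b (1.83 ± 0.21), and 4 lower. The shares of all genes called higher were 25.8% in FB Day 3, 9.84% in FB Day 7, 23.2% in EC Day 3 and 16% in CM Day 3, and those called lower 23.3%, 4.53%, 22.3% and 14.6%. In FB, CM markers summed to 28.5 to 56.8 coding CPM at Day 0 and 15.04 to 600.3 at Day 3. They were highest in the shallow replicates 2 and 3 of FB Day 3. In EC at Day 3 their mean sum was 0.44 times that of Day 0. The part of CM in the changes of Ldb3 and the other genes named here was not tested.

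Regulators of the contractile program, 18 genes of the SRF, TEAD and TGF-beta pathways, were split as well. In FB at Day 3, 7 were higher and 5 lower, against 25.8% and 23.3% of all genes. Fhl2, a LIM-domain partner of SRF, rose most (log2 2.73 ± 0.23), before Smad7 (0.94 ± 0.24) and Tead1 (0.61 ± 0.15), while Fhl1 (-0.92 ± 0.16), Smad3 (-0.88 ± 0.17) and Klf4 (-0.75 ± 0.14) fell. In EC at Day 3 the TGF-beta receptor Tgfbr2 (1.30 ± 0.10) and Smad3 (0.83 ± 0.18) rose, and Fhl2 (-1.35 ± 0.27), Myocd (myocardin, the smooth muscle co-activator of SRF, -0.98 ± 0.23) and Foxo4 (-0.85 ± 0.10) fell. In CM at Day 3 the ligand Tgfb2 rose (2.37 ± 0.20) and Myocd (-0.72 ± 0.16) and Srf (-0.61 ± 0.22) fell.

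Across the 24 FB libraries the log2 CPM of Acta2 ran with Tagln (r = 0.98), and of Cnn1 with Actg2 (r = 0.94), while Acta2 and Myh11 had r = -0.31. In EC the pair Acta2 and Tagln had r = 0.88, and Myh11 and Myl9 had r = 0.87. These correlations describe libraries that share days and have no test. Ranked over 9239 FB genes, the closest to Acta2 were Tagln, C1qtnf6, Ccl9, Csrp2 and Cenpf (r from 0.98 to 0.95), and to Myh11 Nrp1, Clec14a, Fam53b, Grik5 and Pitpnm2 (0.86 to 0.84). In EC the closest to Myh11 were Mylk, which encodes the myosin light chain kinase (0.97), Dgkb, Olfr558, Mrvi1 and Olfr78, and to Acta2 Tagln, Myl9, Akr1b3, Msrb3 and Palld. Over the 24 group means in coding TPM, Cald1 ran closest to Col4a2 (0.99), Lrch2, Map1b, Lama4 and Unc5b. The list depended on the scale, since in deposited TPM the closest were Col4a2 (0.99), Col4a1, Id3, Cnn3 and Hspg2.

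Transcript files, held for all CM and EC days and some HC days, show which isoforms were read. Acta2-201 took 99.0% of Acta2 TPM in CM and 81.8% in EC, where Acta2-202 took the other 18.2%. By reads, Acta2-202, a short transcript of 826 bases, took 4.01% in EC and 0.31% in CM. Myh11-201 had 94.2% of the Myh11 TPM in CM and 88.1% in EC. Cald1-203, an isoform of 4041 bases, took 82.4% of Cald1 reads in CM and 77.9% in EC, but 36.5% and 29.3% of its TPM, since short transcripts weigh more per length. Its read share in EC went from 63.6 ± 11% at Day 0 to 85.6 ± 1.4% at Day 7.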

How the data were processed

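Total RNA-seq of 96 libraries (4 cell types, 6 days, 4 libraries per group) was used. The authors' tools were Trim Galore for trimming, STAR 2.28 for alignment (mm10) and Salmon for quantification. They deposited estimated counts and TPM per transcript (56 files) or per gene (40 files). Transcripts were summed to genes with GENCODE M21, and reads without a gene were at most 0.382% of a library. Whether counting used the strand is not given in the sources used here. Estimated counts were rounded and fitted per cell type over 24 libraries with edgeR 4.0.16 (quasi-likelihood, robust, TMM, filterByExpr) in R 4.3.3, and genes with a Benjamini-Hochberg adjusted p under 0.05 over all genes tested were called. Cell types at Day 0 were compared in 1 fit of 16 libraries, and changes between CM, EC and FB in 1 fit of 72. Ratios were tested by a two-sided exact permutation test (scipy 1.17.1).

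Coding CPM and coding TPM rescale the deposited counts and TPM to nuclear protein-coding genes, because these took between 2.21% and 47.0% of the deposited TPM. This choice was made after seeing the data. Total reads ranged from 2664338 to 55758471 per library, and intervals and tests cover these libraries only. The 8 genes and the other lists were chosen with earlier results of these data known. All 8 genes are named in every comparison, and of each other list up to 3 called genes with the highest and up to 3 with the lowest log2 fold change.

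Alternatives were DESeq2 1.42.0, RLE size factors, no low-count filter, rRNA genes removed, limma 3.58.1 on log2(TPM + 1) and log2(TPM + 0.1), the replicate number as a block, the 2 days compared alone, leaving out 8 libraries and leaving out each library in turn. The edgeR script was also run on counts simulated from the EC and FB libraries, with known changes at Day 3. It recovered 44% of changes of 1 log2 unit in EC and 22% in FB, and 90% and 85% of those of 2 units. The simulated spread was estimated over all days of a cell type together, so differences between days counted as spread. Genes of few reads were not among those changed. These rates therefore need not hold for the fits used here or for scarce genes. Of the genes called, 2.90% and 4.46% were false calls. A gene that was not called may therefore still have changed. Same-numbered libraries of CM Day 1 and Day 3 against Day 0 had r from 0.21 to 0.30, from different mice. On each of these days only 1 of 4 libraries correlated best with its own number. In every other comparison of a later day with Day 0, the lowest same-number r was at most 0.020, that of CM Day 7.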

Additional observations from a re-analysis of the deposited data

Results flagged for a closer look

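In 7 of 192 sets of 4 libraries, the highest library of a contractile gene lay apart from the other 3 by Dixon's criterion, which chance meets in about 1 of 20 sets. CM Day 3 replicate 2 was such a library for Tagln (44.1 coding CPM) and for Cnn1 (8.06). The others were Myl9 in CM Day 7 replicate 2 (40.4), Myh11 in EC Day 3 replicate 3 (188), Myl9 in EC Day 3 replicate 2 (50), Actg2 in EC Day 14 replicate 4 (5.73) and Actg2 in FB Day 0 replicate 4 (0.237).

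The Day 3 change was higher in FB than in EC, by a test of the difference itself, for Acta2 (log2 difference 4.21), Tagln (3.88), Tpm2 (3.72), Cnn1 (3.45), Actg2 (2.50) and Myl9 (1.62). The number of the 8 genes whose change differed between FB and EC was 3, 6, 6, 4 and 4 at Day 1, Day 3, Day 7, Day 14 and Day 28. Between FB and CM it was 3, 5, 6, 4 and 0, and between EC and CM it was 0, 6, 3, 2 and 6.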

How the results depend on the processing

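Of 87 member calls against Day 0, DESeq2, RLE size factors and the removal of rRNA genes kept all 87 with their direction, library sizes of coding reads kept 86, the replicate block 85, no low-count filter 78, the 2 days compared alone 75 of the 85 it could test, leaving out the 8 libraries 74 and coding TPM 67, while 65 were kept whichever library was left out. The deposited TPM scale kept 39 (pseudocount 1) and 41 (pseudocount 0.1). On it, with pseudocount 1 and then 0.1, calls lower than Day 0 went from 22 to 4 and 4 in EC and from 29 to 17 and 18 in HC, calls higher from 22 to 8 and 9 in FB and from 3 to 5 and 6 in EC, and FB calls lower from 1 to 4 and 3. Calls between consecutive days went from 50 to 26 and 27, and differences between cell types from 58 to 26 and 25. FB calls higher were 14 with coding TPM. FB calls lower were 2 with DESeq2 and 2 with library sizes of coding reads. Without the 8 libraries, EC calls were 12 lower and 1 higher, and the ratio of Acta2 to Myh11 had 0 instead of 10 calls, since fewer libraries leave fewer splits. The median gene on the deposited TPM scale shifted by -1.39 in FB Day 3 and by 0.77, 0.80 and 0.96 in EC Day 7, Day 14 and Day 28. Directions turned there, with pseudocount 1 and then 0.1, for Myl9 (-0.95, -1.25) and Cald1 (-1.15, -1.19) in FB Day 3, Acta2 (0.75, 0.79) and Tpm2 (0.24, 0.25) in EC Day 7, Myh11 (0.12, 0.12), Tpm2 (0.31, 0.33) and Cald1 (0.084, 0.087) in EC Day 14, and Acta2 (0.42, 0.45) and Cald1 (0.097, 0.10) in EC Day 28, where Cnn1 was at 0.92 with pseudocount 0.1. The cause of these changes was not tested.

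With each library left out in turn, calls higher ranged from 8 to 11 in CM, 2 to 4 in EC, 17 to 23 in FB and 0 to 0 in HC, calls lower from 0 to 0 in CM, 18 to 23 in EC, 0 to 2 in FB and 24 to 32 in HC. Calls between cell types at Day 0 ranged from 32 to 37, between consecutive days from 46 to 52, and for the ratio from 5 to 11. The replicate block ended the calls of Acta2 in CM Day 14 (log2 0.62, adjusted p = 0.056) and Cald1 in FB Day 7 (0.38, adjusted p = 0.057), brought calls of Tagln in CM Day 14 (0.64, adjusted p = 0.037) and Myl9 in HC Day 28 (-0.69, adjusted p = 0.043), and changed no other call against Day 0. Same-numbered libraries correlated best with their own number in 0 to 3 of 4 cases when days were compared, and in 0 to 4 of 4 between CM, EC and FB of a day, with 4 in Day 28 CM against EC. Cnn1 and Actg2 in FB rest on 2 to 5 reads in FB Day 3 replicates 2 and 3, so their levels there are imprecise.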
